A study of Mus musculus with 10 samples.

Results

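The Eph receptors, ephrins, Slits, Robos, netrins and netrin receptors were compared between mouse neuroblastomas that carry mutant ALK together with MYCN and those that carry MYCN alone. Members were the genes whose name on the array was an Epha, Ephb, Efna or Efnb gene, Slit1 to Slit3, Robo1 to Robo4, any name starting with Ntn, Unc5a to Unc5d, or Dcc. They numbered 40 of the 36161 gene names on the array and were read by 54 probes. Each gene was represented by its brightest probe among those well above background in the tumour channel in at least 5 of the 10 tumours, which left 34 members among 22263 genes tested. The other 6, Epha3, Epha6, Ntn5, Ntng2, Unc5d and Robo3, were too dim for the test.

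The ALK/MYCN group held 5 tumours of mice transgenic for ALK F1174L and MYCN (ALK+/-, MYCN+/-) on a C57BL/6 x 129X1/SvJ background. The MYCN group held 5 tumours of mice transgenic for MYCN alone (MYCN+/-) on 129X1/SvJ. All tumours were untreated, each came from a different mouse, and both groups carried MYCN, so the groups differed by ALK F1174L and by background, which cannot be told apart. ALK is a receptor tyrosine kinase of the sympathetic lineage, F1174L is an activating substitution found in human neuroblastoma, and MYCN is the transcription factor amplified in high-risk disease. Transgenic neuroblastoma models commonly use the tyrosine hydroxylase promoter, but the labels do not name the promoter used here and give no age. Whole tumours were used, so fewer cells of a type and less RNA per cell cannot be told apart. Values are log2 ratios of tumour RNA (Cy3) to a common reference RNA pooled from 11 mouse cell lines (Cy5). A difference is the mean of the ALK/MYCN tumours minus the mean of the MYCN tumours, with its standard error (SE).

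Ephs are the receptor tyrosine kinases of axon guidance, and their ligands, the ephrins, are themselves tethered to the membrane of the neighbouring cell. EphA receptors mostly bind ephrin-As, which hang on a lipid anchor, and EphB receptors mostly bind ephrin-Bs, which span the membrane. Slits are secreted repellents that act through Robo receptors, while netrins attract through DCC and repel through UNC5 receptors. DCC and UNC5 proteins are also described as dependence receptors, which can trigger cell death when netrin is missing. Sympathetic neuroblasts descend from neural crest cells, whose migration ephrins and Slits guide, and several of these families also pattern blood vessels.

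Among all genes tested, 26.5% passed limma's moderated test at an adjusted p of 0.05, 14.2% higher and 12.2% lower in ALK/MYCN tumours. Of the 34 members tested, 17 passed, 6 higher (17.6%) and 11 lower (32.4%). The median difference was -0.27 over the members and -0.0035 over all genes tested. Values of the 2 groups did not overlap for 9 members (26.5%), against 19.9% of all genes. By role, 4 Eph receptors rose and 1 fell, while 1 ephrin rose and 3 fell; the difference between roles was not tested. Of the called members, Epha4 was kept by the filter only through the group where it was high. The counts of members called higher and of members without overlap include it. Among the Slits, Robos, netrins and netrin receptors 1 rose and 7 fell. The brightest probes of Epha5, Ephb3 and Dcc, which these counts use, hold simple repeats. With such probes left out, 6 members were higher and 12 lower of 33 tested, with Epha5 among the lower. Of all 22133 genes tested that way, 3071 were higher and 2719 lower. Dcc was then counted higher only through a dim probe. Differences beyond 1 in size were called for 7 members, Epha8 and Ephb6 upward and Unc5c, Ntng1, Robo4, Efna1 and Unc5b downward, which is 20.6% of members against 4.41% of all genes tested. In the plot of differences by role, the red points are confined to Eph receptors, Efna5 and Dcc.

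**Figure D1:**
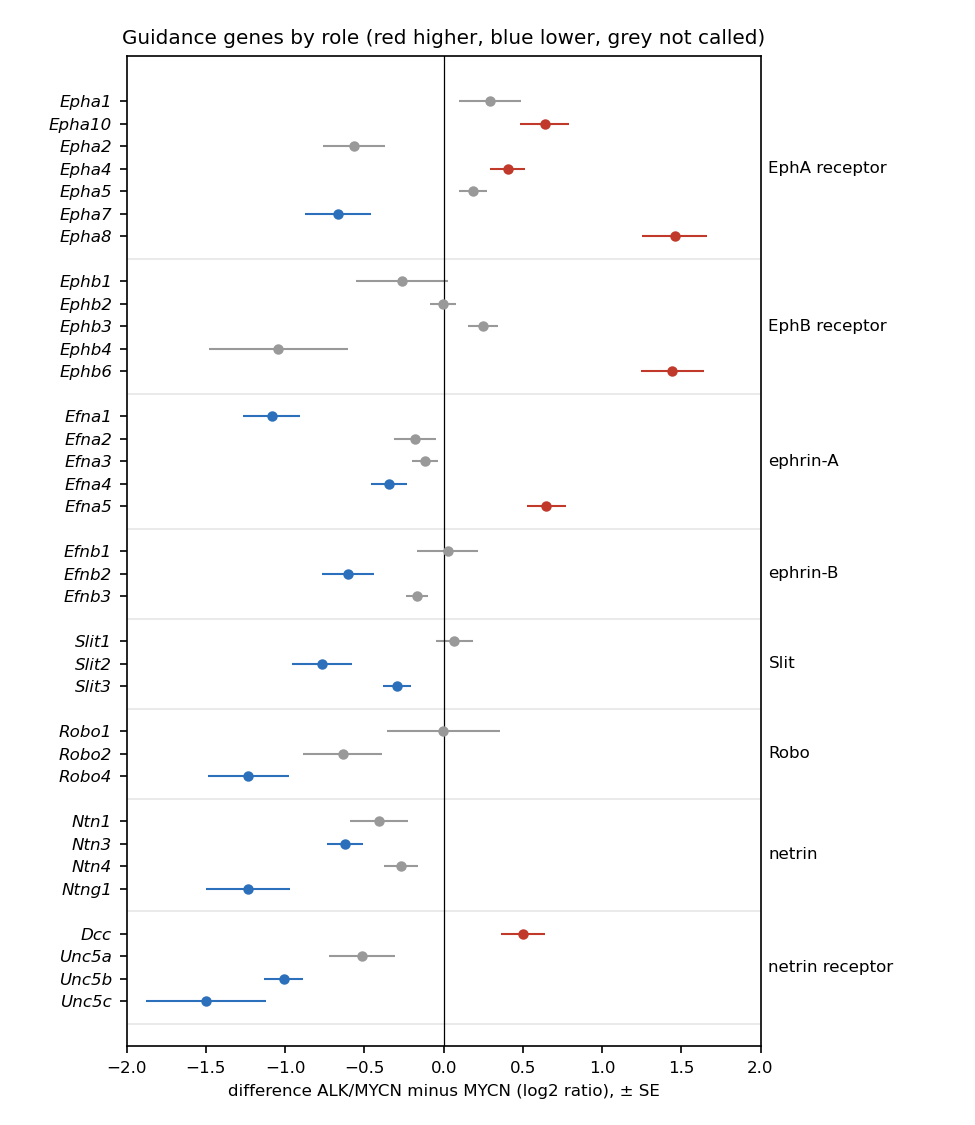
Difference between ALK/MYCN and MYCN tumours for the 34 members tested, in log2 ratio, grouped by role; points are differences and bars their SE (5 tumours a group). Red points are the 6 members higher in ALK/MYCN tumours, blue points the 11 lower and grey points the 17 not called by limma at an adjusted p of 0.05; Epha8 and Ephb6 lie farthest to the right and Unc5c farthest to the left.

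Before the members are taken in turn, 5 tumours need a remark. Markers of skeletal muscle were high in MYCN 2 (mean log2 ratio 4.72) and MYCN 1 (2.13), those of adrenal cortex in ALK/MYCN 3 (3.88) and those of kidney in MYCN 5 (3.52). Adipocyte markers were highest in MYCN 4 (5.51), and within the ALK/MYCN group in ALK/MYCN 3 (3.88). Sympathetic neuroblast markers, which define the labelled tissue, were high in all 10 tumours, with list means from 3.71 to 4.47. The share of spots above background ranged from 53.8% to 58.7% of a tumour's array, with means of 56.8% in ALK/MYCN and 56.5% in MYCN tumours (exact permutation test, two-sided, p = 0.762). Without ALK/MYCN 3, MYCN 2 and MYCN 5 together, but with MYCN 1 and MYCN 4 kept, 4 members were higher and 8 lower. Of all 22263 genes, 2151 were then higher and 1539 lower. Dcc (0.52), Epha4 (0.43), Epha7 (-0.75), Slit3 (-0.30) and Efna4 (-0.20) lost their call, with adjusted p from 0.083 to 0.23.

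Among EphA receptors, 7 of 9 were tested, 3 were higher and 1 lower. Epha8, a neural EphA receptor, rose 2.75-fold. Its log2 ratio was -0.74, -0.85, -1.51, -0.58 and -1.34 in ALK/MYCN tumours 1 to 5 and -2.80, -2.23, -2.70, -2.13 and -2.46 in MYCN tumours 1 to 5. The lowest ALK/MYCN tumour lay above the highest MYCN tumour, and every value was below the reference. The difference was 1.46 ± 0.20 (SE, n = 5 a group; limma, adjusted p = 0.0012), and it stayed between 1.35 and 1.95 in all 27 alternative settings. Epha8's probe lies on chromosome 4 at 136485335-136485394 (mm9, minus strand).

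Ephb6 was the single EphB receptor called among 5, and it rose 2.72-fold. EphB6 lacks kinase activity of its own, and high levels have been linked to favourable outcome in human neuroblastoma. ALK/MYCN tumours 1 to 5 stood at -1.19, -1.22, -0.74, -0.63 and -0.81, and MYCN tumours 1 to 5 at -3.03, -2.01, -2.09, -2.46 and -2.21. No value of one group reached the other. The difference was 1.44 ± 0.20 (limma, adjusted p = 0.0012), from 1.01 to 1.78 over the alternatives.

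The rise of Ephb6 was read by 1 of its 2 probes. The brighter probe lies at 41570442-41570501 on chromosome 6 (mm9, plus strand) and the other at 41564657-41564716, upstream of it on the same transcript accession. The dimmer probe differed by 0.11 (limma over kept probes, adjusted p = 0.31), with values from -0.06 to 0.07 in ALK/MYCN tumours and from -0.26 to 0.03 in MYCN tumours (4 measured). It was dim, at the 20th percentile of mean intensity among kept probes, against the 69th for the brighter one. Even so, it was well above background in 5 ALK/MYCN and 4 MYCN tumours, and the reference was on 9 arrays. The last 30 bases of each probe are shown to tell them apart, with nothing in capitals because neither holds a repeat.
Ephb6, brighter probe: cccccatattaaagggaaagaagggaattt
Ephb6, dimmer probe: catgcagaaccagaggaggatggagtagga
Which exon or untranslated region each lies in was not analysed here.

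The 2 receptors that rose most, Epha8 and Ephb6, were also set side by side at their promoters, 300 bases of RefSeq sequence (GRCm38.p6) from 250 before to 50 after the start. Capitals mark CACGTG, the E-box that MYC proteins bind, or CCGGAA, a core of ETS factor sites, each searched on both strands; the motifs share no letters in these windows. The Epha8 promoter is chr4:136956767-136957066 (minus strand) and holds 1 CACGTG that begins at -148 from the start. The Ephb6 promoter is chr6:41605261-41605560 (plus strand) and holds 1 CCGGAA at -83.
Epha8: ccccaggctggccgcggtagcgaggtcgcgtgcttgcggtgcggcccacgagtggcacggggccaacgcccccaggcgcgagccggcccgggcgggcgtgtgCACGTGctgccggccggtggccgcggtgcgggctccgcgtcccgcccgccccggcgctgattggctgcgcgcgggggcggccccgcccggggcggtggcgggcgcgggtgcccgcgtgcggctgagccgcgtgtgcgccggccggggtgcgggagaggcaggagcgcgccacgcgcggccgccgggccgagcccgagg
Ephb6: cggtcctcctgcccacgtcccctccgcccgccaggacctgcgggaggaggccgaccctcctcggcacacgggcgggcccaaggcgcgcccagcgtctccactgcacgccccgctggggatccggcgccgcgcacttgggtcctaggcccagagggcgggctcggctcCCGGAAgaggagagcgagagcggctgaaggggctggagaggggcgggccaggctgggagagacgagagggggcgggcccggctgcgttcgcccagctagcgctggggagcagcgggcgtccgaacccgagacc
CACGTG was present in 7.15% of all 32851 promoters of this length and in 2 of the 40 promoters of 35 matched members (Epha8 and Robo2). CCGGAA was present in 14.9% of all promoters and in 3 of the 40 (Ephb2, Ephb6 and Unc5b). The 2 receptors shared neither match.

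Epha10 and Epha4 were also called higher, by smaller amounts. Epha10, another kinase-dead Eph receptor, ranged from 0.79 to 1.41 in ALK/MYCN and from 0.04 to 0.64 in MYCN tumours, a difference of 0.64 ± 0.16 (limma, adjusted p = 0.015). Its probe was dim, at the 6.5th percentile of mean intensity among kept probes. The reference was above background on 0 arrays, and the lowest value, 0.04 in MYCN 4, is background. Epha4, which binds both ephrin classes, ranged from -0.20 to 0.31 and from -0.63 to -0.31, a difference of 0.40 ± 0.11 (adjusted p = 0.023). Neither overlapped between groups. Epha4 was well above background in 5 ALK/MYCN but 2 MYCN tumours, so it was kept through the ALK/MYCN group alone. For this gene, 3 of the 5 MYCN values are background, so its difference and lack of overlap are not read as support for a rise. Without MYCN 3 the Epha4 difference was 0.37 (adjusted p = 0.054), and with Cy3 alone it was 0.28 (adjusted p = 0.12). On scanner-processed signals both differences were over 1.5 times larger, 1.40 for Epha10 and 1.28 for Epha4, and with spike-in centring Epha4 differed by 0.61.

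Epha7 was the only EphA receptor called lower on its brightest probe. This receptor of ephrin-As ranged from 1.70 to 2.32 in ALK/MYCN and from 2.14 to 3.15 in MYCN tumours, which overlapped. The difference was -0.67 ± 0.21 (limma, adjusted p = 0.039). Its other 2 kept probes, designed on a different Epha7 transcript, differed by -0.48 (adjusted p = 0.11 over kept probes) and -0.19 (adjusted p = 0.42). Leaving out any 1 of 7 tumours ended the call: without ALK/MYCN 1, 3, 4 or 5 or MYCN 1, 3 or 5 the difference lay between -0.67 and -0.53.

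Epha5 gave opposite answers on its 2 kept probes. This receptor guides retinal and cortical axons. The brighter probe, at 84487348-84487407 on chromosome 5 (mm9, minus strand), differed by 0.19 ± 0.09 (limma, adjusted p = 0.16). The other, at 84483837-84483896 of the same chromosome, read 2.33, 1.61, 1.95, 3.15 and 2.90 in ALK/MYCN tumours 1 to 5 and 3.70, 3.88, 3.65, 4.00 and 3.54 in MYCN tumours 1 to 5. Every ALK/MYCN tumour lay below every MYCN tumour on that probe, with a difference of -1.37 (adjusted p = 0.0057 over kept probes). The brighter probe holds a GT dinucleotide run of 20 bases, as does the sole probe of Ephb3, a receptor of ephrin-Bs, with a run of 32 bases. The last 30 bases of these probes are shown with the GT run in capitals.
Epha5, brighter probe: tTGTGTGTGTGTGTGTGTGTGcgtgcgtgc
Epha5, other probe: tttgtgtacatgtttttgtagtgtaagata
Ephb3, only probe: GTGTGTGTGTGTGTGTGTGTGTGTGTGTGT
Over the 75 kept probes with 8 or more GT units, the median difference was 0.24, with an interquartile range of 0.19 to 0.29, against 0.0003 over all 30857 kept probes. All 75 were well above background in every tumour.

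Ephb3's values followed those of GT repeats at large. It read 0.37, 0.38, 0.43, 0.73 and 0.48 in ALK/MYCN tumours 1 to 5, where the median of the 75 GT-repeat probes was 0.46, 0.44, 0.48, 0.78 and 0.52. In MYCN tumours 1 to 5 it read 0.09, 0.25, 0.42, 0.30 and 0.11, where that median was 0.16, 0.32, 0.43, 0.33 and 0.18. The gene lay within 0.09 of that median in each tumour. Its difference of 0.25 ± 0.09 did not pass (limma, adjusted p = 0.073), and no other probe of Ephb3 was present to read the transcript apart from the repeat.

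**Figure D2:**
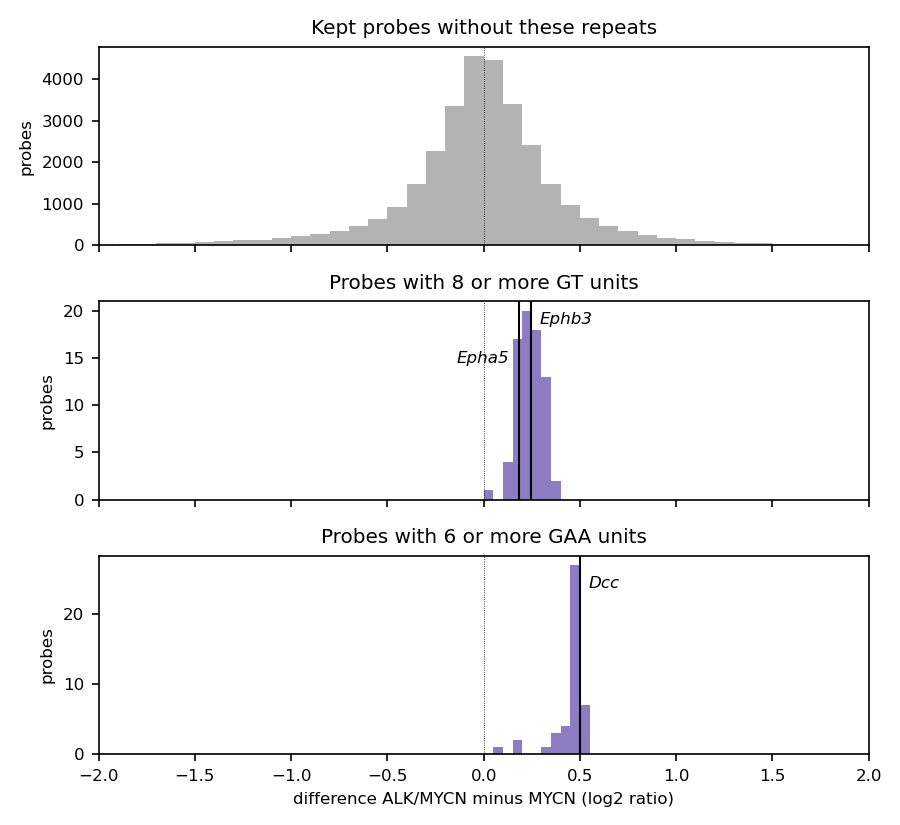
Number of kept probes by their difference between ALK/MYCN and MYCN tumours (log2 ratio), for probes without these repeats (top), 75 probes with 8 or more GT units (middle) and 45 with 6 or more GAA units (bottom). Vertical black lines mark the probes of Epha5, Ephb3 and Dcc; all 3 lie inside the narrow repeat-probe distributions, whose medians are 0.24 and 0.48.

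The other Eph receptors were not called. Epha1 differed by 0.29 ± 0.20, and its 95% interval ran from -0.15 to 0.73. Epha2, an ephrin-A1 receptor of epithelium and vessels, differed by -0.57 ± 0.20 (limma, adjusted p = 0.057) and passed without ALK/MYCN 3 (-0.65), MYCN 1 (-0.66) or MYCN 5 (-0.67). Ephb4, the venous receptor of ephrin-B2, differed by -1.04 ± 0.44 (adjusted p = 0.11) with an SD of 0.80 and 0.76 within the groups. On its second kept probe Ephb4 differed by -0.48 (adjusted p = 0.14 over kept probes). Without ALK/MYCN 3, its highest ALK/MYCN tumour, the Ephb4 difference was -1.38 and passed (adjusted p = 0.023). Ephb1 ranged from 0.97 to 2.23 and from 1.60 to 2.92, so the groups overlapped. Ephb2 differed by -0.0043, with a 95% interval from -0.18 to 0.17.

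Epha3 and Epha6 were above background in MYCN tumours only. Epha3, a receptor of ephrin-A5, read 0.28, 0.45, 0.35, 0.29 and 0.28 in ALK/MYCN tumours 1 to 5, none well above background. In MYCN tumours 1 to 5 it read 0.38, 0.75, 0.85, 0.81 and 0.26, and tumours 2, 3 and 4 were above background. Epha6 read 0.25, -0.10, 0.19, -0.21 and -0.30 in ALK/MYCN and -0.03, 0.45, 0.45, 0.10 and 1.83 in MYCN tumours, with MYCN 3 and 5 above background. The groups overlapped for both genes. Against the array's detection limit, the MYCN mean was 1.12-fold for Epha3 and 1.28-fold for Epha6. These means include MYCN tumours not above background, so they set no lower bound on a group difference. Without the filter on dim probes, the differences of -0.28 and -0.60 did not pass (limma over all probes, adjusted p = 0.16 and 0.26). The Epha6 ratio rests on MYCN 5, the tumour with high kidney markers, and without it was 1.03-fold. The Epha3 ratio lay between 1.07-fold and 1.19-fold without any 1 MYCN tumour. Both ratios are in tumour-channel intensities, where a dye bias would remain because no array had the dyes exchanged.

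All 8 ephrins were tested. Efna1, the ligand of EphA2 and a vascular ephrin, fell 2.12-fold and had the smallest adjusted p among ephrins. It read -2.75, -2.62, -2.19, -2.23 and -2.32 in ALK/MYCN tumours 1 to 5 and -1.65, -1.41, -1.03, -0.91 and -1.69 in MYCN tumours 1 to 5. The groups did not overlap, and all tumours lay below the reference. The difference was -1.09 ± 0.18 (limma, adjusted p = 0.0026). Efna5, a repellent of retinal axons, moved the other way, by 0.65 ± 0.12 (adjusted p = 0.0050). ALK/MYCN tumours spanned 0.55 to 1.10 and MYCN tumours 0.08 to 0.51 on Efna5.

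Efnb2, the arterial ligand of EphB4, read -0.76, -1.21, -1.14, -0.60 and -1.06 in ALK/MYCN tumours 1 to 5 and -0.26, -0.70, -0.45, 0.11 and -0.45 in MYCN tumours 1 to 5. It was lower in ALK/MYCN tumours, although ALK/MYCN 4 lay above MYCN 2. The difference was -0.60 ± 0.16 (limma, adjusted p = 0.024), and the call ended without ALK/MYCN 2 (-0.54) or ALK/MYCN 5 (-0.58). Efnb2 also missed the threshold with median centring (-0.45, adjusted p = 0.083), spike-in centring (-0.39, adjusted p = 0.12) and Cy3 alone (-0.61, adjusted p = 0.059). Efna4 fell by 0.34 (SE 0.11, adjusted p = 0.046), a call that ended without any 1 of 9 tumours, every one but MYCN 1 (-0.37 to -0.27), and with median centring (-0.21) or spike-in centring (-0.14). On the slide shared by ALK/MYCN 2 and MYCN 1 the Efna4 difference was 0.09, the single sign change within slides among the 17 called members. Efna2, Efna3, Efnb1 and Efnb3 were not called, with differences of -0.18, -0.12, 0.02 and -0.17.

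The Slits and Robos gave 3 calls, all lower. Slit2, a secreted repellent, read 1.33, 0.86, 0.91, 0.84 and 1.05 in ALK/MYCN tumours 1 to 5 and 2.33, 1.64, 2.03, 1.58 and 1.24 in MYCN tumours 1 to 5. One pair crossed, ALK/MYCN 1 above MYCN 5, and the remaining MYCN tumours lay above every ALK/MYCN tumour. The difference was -0.77 ± 0.19 (limma, adjusted p = 0.016). Slit3 differed by -0.29 ± 0.09 (adjusted p = 0.031) without overlap, and the call ended without ALK/MYCN 4, MYCN 3, MYCN 4 or MYCN 5 (-0.30 to -0.27). With median centring Slit3 differed by -0.15 (adjusted p = 0.33) and with spike-in centring by -0.09 (adjusted p = 0.59). Slit1 was not called, with a difference of 0.07 and a 95% interval from -0.19 to 0.33.

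Robo4, the Robo of endothelial cells, fell 2.35-fold. It read 2.49, 2.37, 3.32, 1.86 and 2.36 in ALK/MYCN tumours 1 to 5 and 3.29, 3.59, 3.80, 4.23 and 3.64 in MYCN tumours 1 to 5. ALK/MYCN 3 just exceeded MYCN 1, and all other ALK/MYCN tumours lay below all MYCN tumours. The difference was -1.23 ± 0.26 (limma, adjusted p = 0.0074), but on scanner-processed signals it was -0.36 (adjusted p = 0.10). The neural receptors Robo1 and Robo2 were not called. Robo1 differed by -0.001, yet its SD was 0.85 among ALK/MYCN and 0.26 among MYCN tumours, with ALK/MYCN 4 at 0.44 and ALK/MYCN 3 at 2.60. Robo2 differed by -0.64 ± 0.25 (adjusted p = 0.086) and by -0.55 on its second probe; without ALK/MYCN 1 it passed at -0.81 (adjusted p = 0.033). ALK/MYCN 4 was the lowest tumour of all in Robo1, Robo2 and Robo4.

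No netrin rose. Ntng1, a lipid-anchored netrin G1 that binds the NGL-1 ligand rather than DCC, fell 2.36-fold. It read 3.33, 3.07, 3.68, 2.56 and 2.42 in ALK/MYCN tumours 1 to 5 and 4.63, 4.33, 4.34, 4.36 and 3.59 in MYCN tumours 1 to 5. ALK/MYCN 3 exceeded MYCN 5 and no other pair crossed. The difference was -1.24 ± 0.26 (limma, adjusted p = 0.0084), and a second kept probe gave -1.08 (adjusted p = 0.0063 over kept probes). The remaining probe was above background in 0 ALK/MYCN and 4 MYCN tumours, and its MYCN mean was 1.24-fold the detection limit.

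Ntn3, a secreted netrin, had the smallest adjusted p of the netrins. It read 2.02, 2.37, 2.02, 1.91 and 2.44 in ALK/MYCN tumours 1 to 5 and 2.71, 2.78, 2.75, 2.67 and 2.96 in MYCN tumours 1 to 5, without overlap. The difference was -0.62 ± 0.11 (limma, adjusted p = 0.0042). Under spike-in centring it shrank to -0.41 and still passed (adjusted p = 0.035). Ntn1, the classical attractant, differed by -0.41 ± 0.18 (adjusted p = 0.13) and Ntn4 by -0.27 ± 0.11 (adjusted p = 0.087). Both passed without MYCN 1, at -0.54 and -0.33. Ntn1 was well above background in only 2 ALK/MYCN and 4 MYCN tumours, so its level was poorly measured in the first group.

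Both repulsive netrin receptors that were called fell. Unc5b, also a receptor of endothelial tip cells, read -3.33, -3.07, -2.73, -3.10 and -3.17 in ALK/MYCN tumours 1 to 5 and -2.21, -2.02, -2.12, -1.77 and -2.24 in MYCN tumours 1 to 5. The groups were apart by about the spread within either one. The difference was -1.01 ± 0.12 (limma, adjusted p = 0.00072), the smallest adjusted p of any member. Over the 27 alternatives it stayed between -1.13 and -0.76.

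Unc5c showed the largest fall of any member, 2.83-fold, and the widest spread among those called. It read -0.20, -0.23, 0.27, 1.22 and 0.23 in ALK/MYCN tumours 1 to 5 and 2.13, 1.02, 1.32, 2.86 and 1.45 in MYCN tumours 1 to 5. ALK/MYCN 4 lay above MYCN 2, and no other pair crossed. The difference was -1.50 ± 0.38 (limma, adjusted p = 0.017). On this probe ALK/MYCN 2 was not well above background, and the reference was above background on only 4 arrays. A second probe was above background in 0 ALK/MYCN and 5 MYCN tumours, so it was kept through the MYCN group alone, and only a bound is given for it: at least 1.80-fold lower. On scanner-processed signals the difference of the first probe was -2.30 and missed the threshold (adjusted p = 0.071). Unc5a differed by -0.52 ± 0.21 (adjusted p = 0.097) and passed without ALK/MYCN 1, at -0.66.

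**Figure D3:**
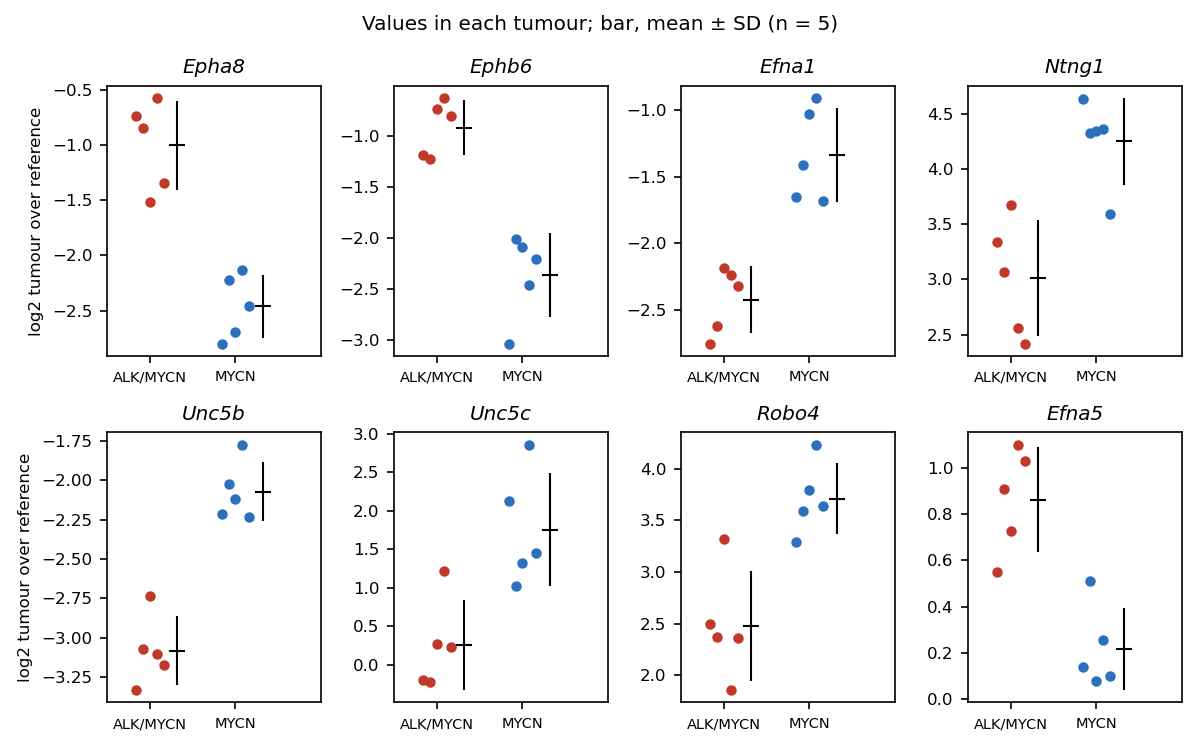
Log2 tumour over reference ratio in each tumour (points, in the order of tumours 1 to 5 within a group) for the 7 called members that differ by more than 1, and Efna5; black bars are mean ± SD (5 tumours a group) and vertical scales differ between panels. Epha8, Ephb6, Efna1, Unc5b and Efna5 do not overlap between groups, while 1 ALK/MYCN tumour reaches into the MYCN range in Ntng1, Unc5c and Robo4.

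Dcc, the attractive netrin receptor, was called higher, but its brightest probe was a repeat. That probe is a GAA trinucleotide run over 51 bases, which the array places on chromosome 7 (68417162-68417221, mm9), while the Dcc gene lies on chromosome 18. Its mean intensity was at the 97th percentile of kept probes. It differed by 0.50 ± 0.14 (limma, adjusted p = 0.026), against a median of 0.48 over 45 probes with 6 or more GAA units (interquartile range 0.45 to 0.49). The call ended without ALK/MYCN 1, MYCN 1, MYCN 4 or MYCN 5 (0.46 to 0.49).

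A second Dcc probe, placed on chromosome 18, read 0.84, 0.85, 0.73, 0.84 and 0.79 in ALK/MYCN tumours 1 to 5 and 0.44, 0.36, 0.35, 0.21 and 0.76 in MYCN tumours 1 to 5. MYCN 5 was the one MYCN tumour inside the ALK/MYCN range. It was dim, well above background in all ALK/MYCN tumours but only in MYCN 2 and MYCN 5, so 3 of the 5 MYCN values are background and its difference is not read as support for the call. The remaining probe was above background in 0 tumours. With the probes that hold simple repeats left out, 6 members were higher and 12 lower of 33 tested: Epha5 joined the lower ones, Dcc was counted higher through the dim probe just described, and Ephb3 was not measured.

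**Figure D4:**
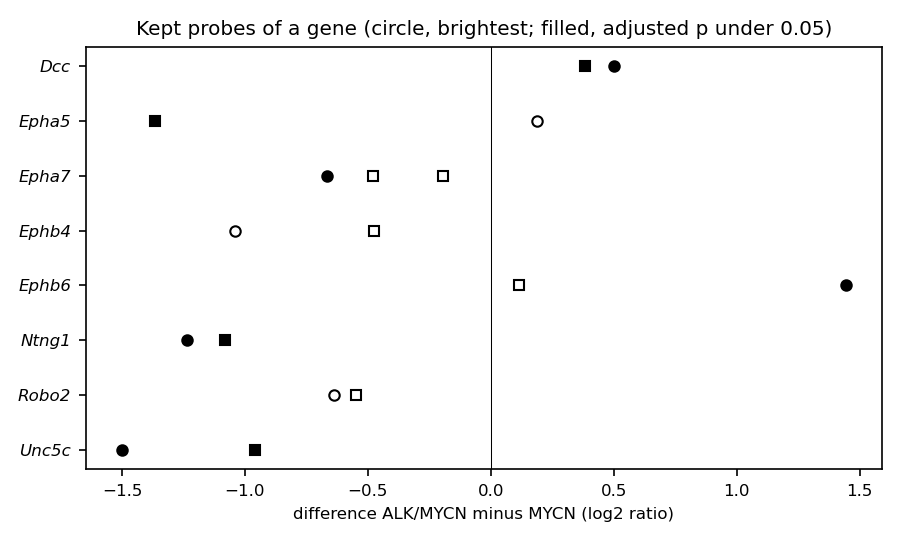
Difference between ALK/MYCN and MYCN tumours (log2 ratio) for each kept probe of the 8 members with more than 1; circles are the brightest probe, squares the others, and filled symbols passed limma at an adjusted p of 0.05 over kept probes. Ntng1, Unc5c and Dcc have both symbols filled on one side of 0, although the squares of Unc5c and Dcc passed the filter through 1 group alone, whereas the filled square of Epha5 at -1.37 faces an open circle at 0.19.

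The arrays lay on 3 slides: slide 1 held 1 ALK/MYCN and 1 MYCN tumour, slide 2 held 3 and 1, and slide 3 held 1 and 3. Each difference was also read within slides, where 1 group is always a single tumour. Epha8 differed by 1.95, 1.19 and 1.12 on slides 1, 2 and 3, and Ephb6 by 1.81, 1.61 and 1.30. Unc5b differed by -0.86, -1.28 and -1.05 on the same slides, Efna1 by -0.97, -1.48 and -0.94, and Ntng1 by -1.56, -1.17 and -1.67. Unc5c ranged more widely, from -2.43 on slide 2 to -1.04 on slide 3. In all, 16 of the 17 called members kept their sign on every slide. They were called on these same tumours, so this agreement follows largely from the call and was no separate test. With slide as a block in the limma fit, 5 members were higher and 9 lower. Dcc (0.43, adjusted p = 0.060), Slit3 (-0.29, adjusted p = 0.053) and Efna4 (-0.26, adjusted p = 0.15) were no longer called. Of all 22263 genes, 19.6% were then called, 2475 higher and 1880 lower, against 26.5% without the block.

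The members too dim for the test were rarely detected. Ntn5 and Unc5d were well above background in 0 of 10 tumours. Ntng2, the relative of Ntng1, was above background in 3 ALK/MYCN and 1 MYCN tumours, and Robo3, which controls midline crossing of axons, in 2 and 1. No difference was detectable for these 4 at this signal.

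Markers of other cell types were read in the same tumours. Of 17 endothelial markers tested, 14 were lower in ALK/MYCN tumours and 0 higher. Their mean log2 ratio ranged from 0.47 to 1.34 in ALK/MYCN and from 1.31 to 2.31 in MYCN tumours, and Cdh5, the adhesion molecule of endothelial junctions, differed by -1.68 ± 0.28 (limma, adjusted p = 0.0030). Macrophage markers were lower for 10 of 15 and higher for 1, and 4 of 17 fibroblast and pericyte markers were lower. MYCN 4 had the highest mean over these stromal lists. It was the highest MYCN tumour in 6 of the 17 called members and the lowest in 3. ALK/MYCN 4 had the same counts in its own group. ALK/MYCN 1 had the lowest stromal mean, and it was the lowest ALK/MYCN tumour in 6 and the highest in 2. These counts pool members called higher and lower, and they were not tested.

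With the stromal mean of each tumour as a covariate, added to the limma fit, 3 members stayed higher and 6 lower. Epha8 (1.49), Ephb6 (1.78) and Efna5 (0.76) kept their rise. Efna1, Unc5b, Slit2, Ntn3 and Epha7 kept their fall, Efna1 at -0.67 (adjusted p = 0.014), which is less than its -1.09 without the covariate by over 1.5 times, and Unc5a joined them at -0.84 (adjusted p = 0.045). Robo4 was at -0.80 (adjusted p = 0.084), also reduced by over 1.5 times, and Ephb4 at 0.04 (adjusted p = 0.94). Unc5c, at -1.35 (adjusted p = 0.11), and Ntng1, at -1.19 (adjusted p = 0.056), moved little in size but no longer passed. Efnb2 (-0.62, adjusted p = 0.096), Slit3 (-0.27, adjusted p = 0.15), Efna4 (-0.27, adjusted p = 0.25), Epha10 (0.53, adjusted p = 0.12), Epha4 (0.34, adjusted p = 0.15) and Dcc (0.52, adjusted p = 0.099) were not called either. The covariate itself differed between the groups, and the part of these cell types in the results was not tested beyond this fit.

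**Figure D5:**
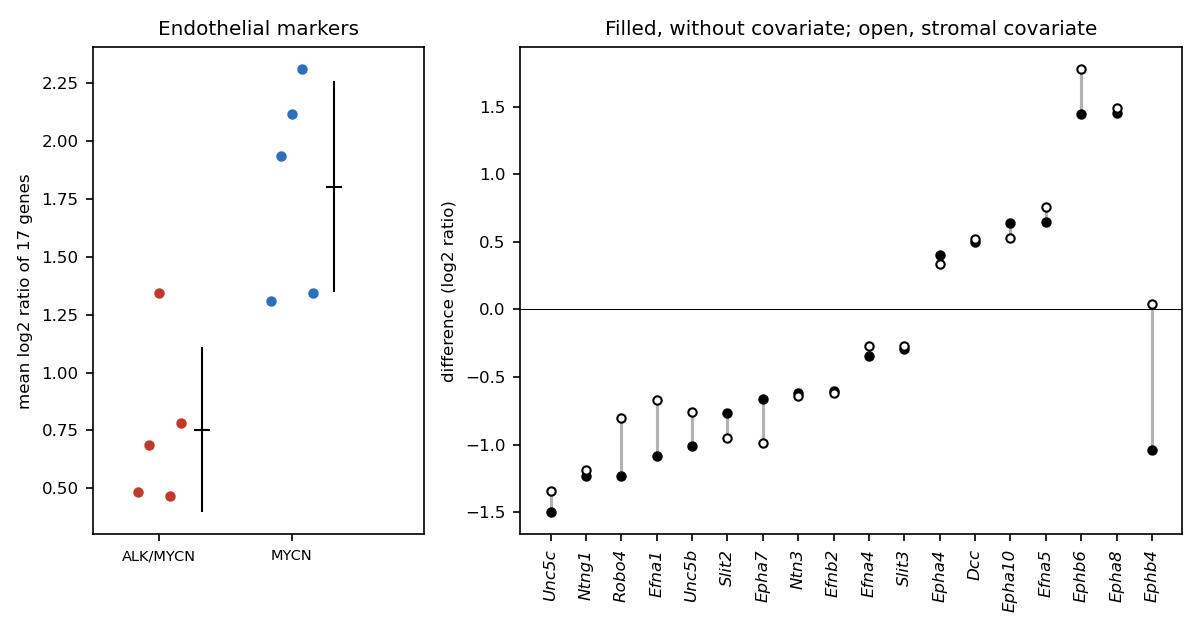
Left, mean log2 ratio of the 17 endothelial markers in each tumour (points; bar, mean ± SD, 5 tumours a group). Right, difference between ALK/MYCN and MYCN tumours (log2 ratio) of the 17 called members and Ephb4, without a covariate (filled) and with the stromal mean as covariate (open); Ephb4 moves from -1.04 to 0.04 and Robo4 from -1.23 to -0.80, while Epha8 and Ntn3 hardly move.

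Schwann cell and crest glia markers moved the opposite way. Of 9 tested, 6 were higher in ALK/MYCN tumours and 0 lower, with list means of 1.60 to 2.36 against 0.74 to 1.39. Sox10, the transcription factor of crest glia, rose by 1.16 ± 0.16 (limma, adjusted p = 0.0011), whereas Erbb3, a neuregulin receptor, was above background in 0 tumours. Of 18 sympathetic neuroblast markers, 6 were higher and 0 lower. Their part in the rise of Epha8, Ephb6 and Efna5 was not tested.

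Genes that act with these receptors were counted from lists of partners, 98 of 104 tested, of which 22 were higher (22.4%) and 14 lower (14.3%). Over all genes tested these shares were 14.2% and 12.2%, and they apply to the counts by list as well. The lists were not tested as lists. Among 36 Eph and ephrin partners 8 were higher and 4 lower. Of these 8, Arhgef15 (0.32) and Itsn1 (0.32) were read by GT-repeat probes like that of Ephb3, and without repeat probes 20 partners in all were higher and 14 lower. Chn1, the Rac GTPase-activating protein (GAP) that relays EphA4 signals, differed by 0.83 ± 0.09 (limma, adjusted p = 0.00051). Anks1b differed by 0.73 and the adaptor Nck2, which binds ephrin-Bs and Ephs, by 0.27. Anks1b was well above background in only 7 tumours, and its remaining values are background. It read from 0.63 to 1.21 in ALK/MYCN and from -0.22 to 0.27 in MYCN tumours. Its difference is therefore not read as support for a rise, although the 22 partners called higher include it. Sipa1l1, a Rap regulator bound by EphA4, fell by 0.74 (SE 0.09, adjusted p = 0.00066).

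Among 31 Slit and Robo partners 9 were higher and 4 lower. Ndfip1, an adaptor of ubiquitin ligases whose family sorts Robo1, rose by 0.96 ± 0.13 (limma, adjusted p = 0.0010), and the kinase Pak1, an effector of Rac, by 0.81 ± 0.14. Ndel1 differed by 0.37. Gpc3, a heparan sulphate proteoglycan, showed the largest partner difference, -2.31 ± 0.34 (adjusted p = 0.0014), without overlap between groups.

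Among 31 netrin partners 5 were higher and 6 lower. Rgmb, a ligand of the DCC relative neogenin, rose by 1.60 ± 0.15 (limma, adjusted p = 0.00026), from a mean of 0.34 in MYCN to 1.94 in ALK/MYCN tumours. Maged1, which binds UNC5A in cell death signalling, rose by 0.71, and Trim9, a ubiquitin ligase that binds DCC, by 0.89. Dscam, another netrin receptor, fell by 0.69 (SE 0.07, adjusted p = 0.00051), the same direction as Unc5b and Unc5c. The 36.7% of partners called stand beside the 26.5% of all genes, and the median partner difference was 0.05.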

How the data were processed

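Per the labels' protocols, RNA of 10 tumours was labelled with Cy3 and a common reference with Cy5 in 1 dye orientation on Agilent arrays. Per the file headers, Agilent Feature Extraction (version 10.7.3.1) gave the spot intensities and log10 ratios, and probe positions are on mm9. The deposited table holds log2 ratios, which equalled log2 of processed Cy3 over processed Cy5 to within 5.01e-04; medians of its columns lay between -0.185 and -0.034. Its values and the log10 ratios served only as alternatives or checks.

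From the deposited intensities, mean signals were background-corrected (normexp, offset 50), normalised by loess with controls at weight 0 and turned to tumour over reference; outlier spots (177 to 345 an array) were missing, and 0 were saturated. Probes well above background in Cy3 in at least 5 of 10 tumours were kept (30857), with the brightest per gene. Groups were compared with limma 3.58.1 (lmFit, eBayes, two-sided, Benjamini-Hochberg over 22263 genes, 0.05) in R 4.3.3. On simulated data over 22172 genes with 200 changed, 34.3%, 80.6% and 98.5% of changes of 0.5, 1 and 2 on the log2 scale were recovered. There were 9 false calls of 151. The 26.5% of genes called in the data is a far larger share, so these rates need not hold there. With 5 arrays a group, their number limits the precision.

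Members and gene lists were chosen with earlier results of these data known. Every tumour's value is given for called members that differ by over 1, the smallest adjusted p of each role, and members above background in 1 group only; up to 4 called partners of each list are named by p. Values of further tumours, the second probes of Epha5 and Dcc the partners Arhgef15 and Itsn1 and the markers Cdh5, Sox10 and Erbb3 were chosen after they were seen. Folds called "at least" set the brighter group's mean against the detection limit or the dim group's mean, whichever is higher, per array in Cy3 (loess, Aquantile). The ratios to the limit of Epha3, Epha6 and a dim Ntng1 probe were computed the same way. Groups, slides and replicate numbers come from labels and headers; replicate numbers were not found to pair tumours. Transgene levels were not checked.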

Additional observations from a re-analysis of the deposited data

Results flagged for a closer look

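Of 68 sets of 5 values (34 members in each group), 1 held a tumour that stood apart from the other 4 by Dixon's ratio, where chance gives about 5%. Epha4 read 0.31 in ALK/MYCN 2, against -0.20 to -0.08 in the other ALK/MYCN tumours, and this lay on the side away from the MYCN tumours.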

How the results depend on the processing

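Called members kept their direction in all 27 alternatives that measured them, and 7 of 17 (Efna1, Efna5, Epha8, Ephb6, Ntn3, Slit2 and Unc5b) also kept their call. Of 17 members not called, 9 passed in at least 1. Epha5 reversed, to -0.59 with the mean over kept probes and -1.37 with simple-repeat probes left out, an alternative chosen after seeing the data; the probe used differs by construction. Lower members numbered 6 on scanner-processed signals, 7 with median centring, 7 with spike-in centring and 6 with the stromal covariate, which left 3 higher. Over all genes tested, lower calls numbered 2049, 1349, 928 and 1489 in the same order, against 2723 in the main fit. The cause was not tested. With median centring 76.8% of called genes were higher, and with spike-in centring 88.4%, against 53.8%; under spike-in centring the median over all genes was 0.21, and before taking that shift off, members split 8 higher and 7 lower, as with median centring. Spike-in centring gave 42 higher and 8 lower partners; lower partners were 8 with slide as a block and 7 with the stromal covariate. Genes called numbered 3690 without ALK/MYCN 3, MYCN 2 and MYCN 5 together and 3560 with the stromal covariate. Leaving out 1 tumour gave 4130 to 5432 genes, 5 to 6 higher and 8 to 13 lower members, and 15 to 22 higher and 10 to 14 lower partners. Replicate numbers only name tumours (correlation of deviations 0.34, -0.02, -0.08, -0.09 and -0.06; 1 of 5 tumours matched its own number best), and a replicate block gave 4617 genes, 5 higher and 10 lower members. Dim probes limit Epha3, Epha4, Epha6, Epha10, Ntn1 and the second probes of Dcc, Ephb6 and Unc5c.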
